A study of Mus musculus with 3 samples.

Results

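The chemokine genes of T and NK cells described here are Ccl3 (ENSMUSG00000000982), Ccl4 (ENSMUSG00000018930), Ccl5 (ENSMUSG00000035042), Xcl1 (ENSMUSG00000026573) and Ccl1 (ENSMUSG00000020702), 5 of the 33696 genes in the matrices. They were picked by name with their values in these libraries already known, so their levels and ratios are a description. The libraries were 3' single-cell RNA libraries (10x Genomics) of live CD45+ cells sorted after a density gradient from tumors of KP1, a mouse small cell lung cancer line, grown under the skin of wild-type B6129SF1/J mice that had received 500000 KP1 cells. Cytokine was injected into the peritoneum on alternate days, at 3 µg per dose, starting on day 7, and tumors were taken on day 19. One group received mono-IL-10, a monomeric human IL-10. Another received IL-10/2-Trikine, a fusion in which mono-IL-10 is fused to a non-signaling IL-2 that still recruits the IL-2 receptor β chain. The last received the same fusion protein plus anti-PD-1 (200 µg per dose, clone RMP1-14), called the combination below. The titles and treatment labels name anti-PD-1 for the combination alone, although one protocol sentence could be read as covering every group. There was no group without cytokine.

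Each group was 1 library, and the number of mice behind a library was not given in the sources used here. No test between groups was therefore possible. Levels are unique molecular identifiers (UMIs) summed over the cells of a class and divided by all UMIs of that class, scaled to counts per 1e+06 UMIs (CPM). Their intervals are exact 95% Poisson intervals, those of log2 ratios are exact conditional binomial intervals and those of shares are exact Clopper-Pearson intervals, and all of them cover counting error only. Where 3 values follow each other, they belong to the mono-IL-10, IL-10/2-Trikine and combination libraries, in that order. Levels were compared between classes and libraries for 1 gene at a time, because CPM of 3' UMIs carries no scale on which different genes could be ranked.

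Chemokines are small secreted proteins that bind G protein-coupled receptors and direct the movement of leukocytes along their gradients. Ccl3 and Ccl5 bind Ccr1, and Ccl5 also binds Ccr3, whereas Xcl1 binds Xcr1 on cross-presenting type 1 dendritic cells and Ccl1 binds Ccr8, a receptor of regulatory T cells. CD8+ T cells and NK cells are known to store or rapidly make Ccl3, Ccl4, Ccl5 and Xcl1, and activated CD4+ T cells to make Ccl1, while macrophages and neutrophils are further known sources of Ccl3 and Ccl4.

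The stretches of 250 bases upstream of the annotated start were available in the RefSeq table (GRCm38.p6) for 3 of the 5 genes, Ccl1 (chr11:82179813-82180062, minus strand), Ccl3 (chr11:83649379-83649628, minus strand) and Xcl1 (chr1:164935523-164935772, minus strand). They are shown because these genes are known to be switched on by antigen-receptor and NK-receptor signals, in which NFAT proteins take part. Capitals mark the NFAT core TTTCC on either strand (GGAAA on the other).
Ccl1: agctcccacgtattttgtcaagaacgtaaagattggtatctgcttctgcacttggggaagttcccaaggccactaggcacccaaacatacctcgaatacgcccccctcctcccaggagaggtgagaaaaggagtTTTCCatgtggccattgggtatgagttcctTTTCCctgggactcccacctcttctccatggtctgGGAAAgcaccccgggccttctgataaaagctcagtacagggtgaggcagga
Ccl3: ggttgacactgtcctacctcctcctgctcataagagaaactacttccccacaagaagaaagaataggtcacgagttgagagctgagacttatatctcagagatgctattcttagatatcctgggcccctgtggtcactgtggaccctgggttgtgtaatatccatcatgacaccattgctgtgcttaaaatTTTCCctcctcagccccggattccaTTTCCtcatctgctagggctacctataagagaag
Xcl1: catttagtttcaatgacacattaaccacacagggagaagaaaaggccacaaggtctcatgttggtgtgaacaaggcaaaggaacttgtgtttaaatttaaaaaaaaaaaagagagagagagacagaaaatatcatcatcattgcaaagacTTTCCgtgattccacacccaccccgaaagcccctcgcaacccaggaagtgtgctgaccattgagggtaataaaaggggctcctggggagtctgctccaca
The Ccl1 window held 3 matches, the Ccl3 window 2 and the Xcl1 window 1, in a table where 55.6% of the 32851 promoter windows of that length held at least 1. The AP-1 letters TGANTCA (6.75% of all windows) and the TATA letters TATAAA (12.4%), both searched on either strand, were in none of the 3 windows. These matches describe letters and not bound sites. Ccl4 and Ccl5 are named only.

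The kept cells numbered 22235, 22707 and 26967, with medians of 4774, 5562 and 4273 UMIs per cell, and pairs of libraries shared 137 to 180 cell barcodes. Although the labels name the material as T cells, the sorted cells also held other leukocytes and some tumor cells. Classes were built from clusters in which no chemokine or chemokine receptor gene took part, and T cells were split by their Cd8a, Cd8b1, Cd4 and Foxp3 transcripts. There were 4265, 4169 and 4154 CD8+ T cells, 1236, 867 and 2226 CD4+ Foxp3- T cells, and 191, 546 and 598 Foxp3+ T cells. NK-like cells were split by whether a Cd3d, Cd3e or Cd3g UMI was present, into 639, 3689 and 2336 with Cd3 and 687, 1345 and 1879 without it. T cell markers (12 genes) summed to 4456, 4761 and 4541 CPM in those with Cd3 and 907, 929 and 871.5 CPM in those without. Ncr1 was at 240, 111 and 175 CPM in those with Cd3 and 763, 573 and 515 CPM in those without. Whether the cells with Cd3 were NK cells or T cells bearing NK receptors was not tested. A cluster led by Tnfsf11, Tnfsf8 and Scin, with Il1rl1 and Cd40lg further down its leading genes, had a Cd3e UMI in 86.8% of its cells. It met 4 T cell markers and as many mature dendritic cell markers, was given to no single class and is called cluster 5 (768, 2332 and 2012 cells). Macrophage-like cells numbered 3904, 1663 and 3896, monocyte-like cells 2078, 1924 and 1909, and neutrophil-like cells 339, 649 and 124. A cluster with both C1qa and Cd3e in most barcodes, of which 68.9 to 93.3% were scored as doublets, is given as macrophage-and-T barcodes and enters no class. Shallow clusters (13.8, 4.23 and 11.1% of cells) were kept out after their depth had been seen. Background was read from KP1 tumor cell-like and B cell-like cells and from droplets under 100 UMIs. In those droplets Ccl5 stood at 2484, 2332 and 6585 CPM, Ccl4 at 1145.5, 581 and 881 CPM and Ccl3 at 229, 184 and 244 CPM. Xcl1 stood at 185, 136 and 344 CPM there and Ccl1 at 22.4, 41.7 and 59.7 CPM. These values give the make-up of free RNA and not its amount in a cell. C1qa, a macrophage marker, was at 923, 278 and 638 CPM in the droplets but at 20.2, 4.76 and 17.1 CPM in CD8+ T cells. A level below the droplets therefore does not by itself show background.

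**Figure D1:**
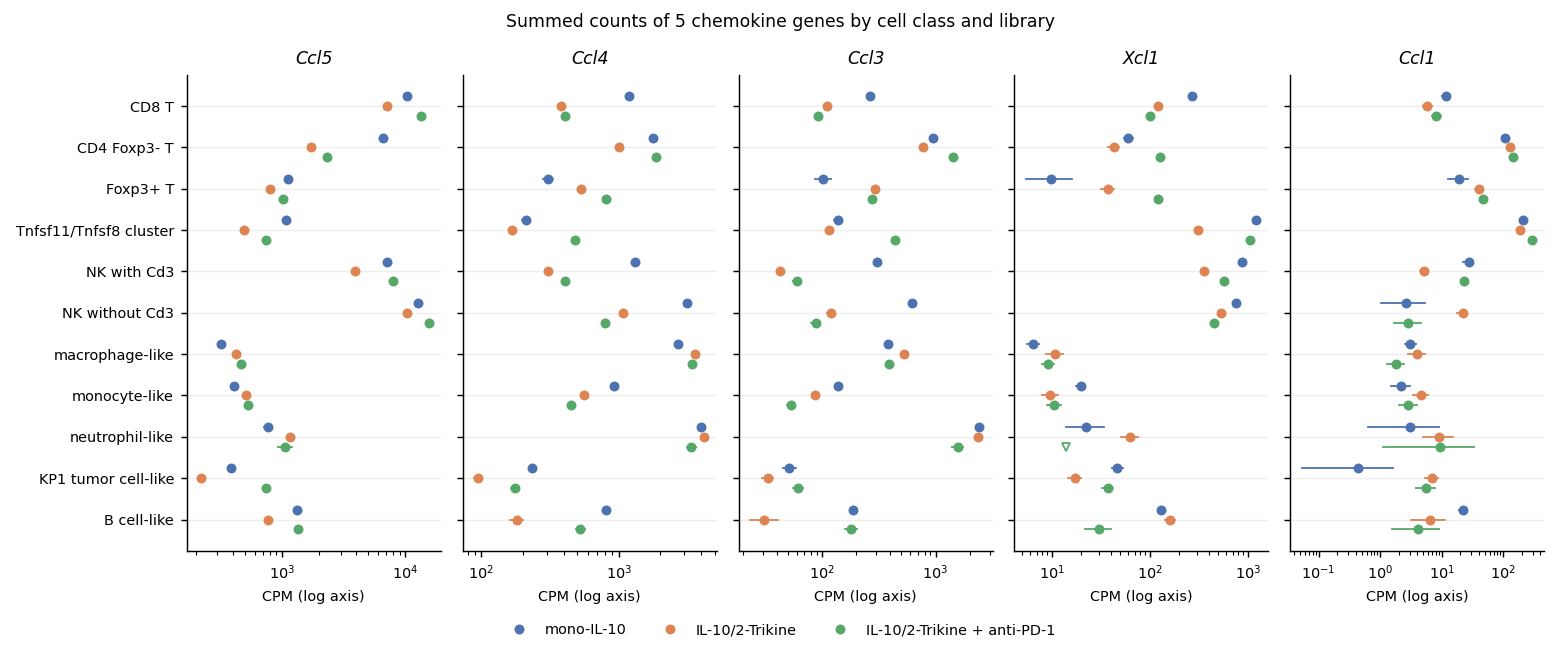
Levels of the 5 chemokine genes (CPM, logarithmic axis) in 11 cell classes, with 1 point per library and exact 95% Poisson intervals as bars. The Tnfsf11/Tnfsf8 row is cluster 5, the neutrophil-like row leaves out the mast or basophil-like cells, and an open triangle marks the 3-count limit where no UMI was seen. Ccl5 was highest in CD8+ T cells and NK-like cells, Ccl3 in neutrophil-like and CD4+ Foxp3- T cells, and Ccl1 in cluster 5 and CD4+ Foxp3- T cells.

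Ccl3 was at its highest in neutrophil-like cells, followed by CD4+ Foxp3- T cells, in all 3 libraries. The gene encodes MIP-1α, a ligand of Ccr1. Its level in neutrophil-like cells was 3088, 2630 and 2453 CPM, and 2414, 2360 and 1570.5 CPM once the 8, 11 and 12 mast or basophil-like cells in that cluster were left out. Without them the combination value (95% interval 1407.5 to 1747.1) overlapped that of CD4+ Foxp3- T cells, while the other libraries' values did not. In CD4+ Foxp3- T cells it was 955, 780 and 1414 CPM, and 17.3, 19.8 and 28.8% of these cells held a Ccl3 UMI after each cell had been thinned to 1000 UMIs (30.2, 38.4 and 49.7% unthinned, at median depths of 3863.5, 4821 and 5390 UMIs). The same thinned share was 3.72, 1.02 and 3.80% in KP1 tumor cell-like cells and 4.44, 1.15 and 5.38% in B cell-like cells, so CD4+ Foxp3- T cells stood well above both. CD8+ T cells were lower, at 265, 111 and 92.9 CPM, with thinned shares of 9.44, 5.54 and 5.71%, the last of them near the 5.38% of B cell-like cells. NK-like cells without Cd3 held 620, 121 and 87.6 CPM and those with Cd3 307, 42.9 and 59.8 CPM. CD8+ T cells and both NK-like classes were below the near-empty droplets (those under 100 UMIs) in the IL-10/2-Trikine and combination libraries, at 184 and 244 CPM. In both NK-like classes the mono-IL-10 library was far above the other two. In NK-like cells with Cd3 a Ccl3 UMI was present in 11.8, 3.20 and 3.99% of thinned cells, and the share in the combination library lay between those of the KP1 tumor cell-like and B cell-like cells. Macrophage-like cells were at 379, 523 and 393 CPM, and monocyte-like cells at 138, 86.7 and 53.1 CPM. Cluster 5 held 138, 115 and 435 CPM, the combination being the highest.

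Ccl4, which encodes MIP-1β, a chemoattractant of monocytes and T cells, had neutrophil-like and macrophage-like cells among its 3 highest classes in every library. In neutrophil-like cells it was 3949, 4144 and 3382.5 CPM without the mast or basophil-like cells, and 5470, 4938 and 8216 CPM with them. Macrophage-like cells held 2721, 3608 and 3392 CPM, and 52.5, 55.9 and 56.6% of them had a Ccl4 UMI after thinning. Among lymphocytes, NK-like cells without Cd3 were highest in the mono-IL-10 library, at 3128 CPM, above the 1768 CPM of CD4+ Foxp3- T cells. In the combination library the order of these 2 classes was the opposite, with 790 CPM in NK-like cells without Cd3 and 1875 CPM in CD4+ Foxp3- T cells. NK-like cells without Cd3 in the IL-10/2-Trikine library held 1082 CPM and CD4+ Foxp3- T cells 997 CPM, and their intervals did not overlap. CD8+ T cells were at 1186, 382 and 404 CPM, and NK-like cells with Cd3 at 1308, 306 and 408 CPM. Their thinned shares were 32.6, 16.1 and 19.9% in CD8+ T cells and 26.1, 12.7 and 15.6% in NK-like cells with Cd3, against 12.9, 3.22 and 9.89% in KP1 tumor cell-like cells and 15.2, 6.32 and 10.2% in B cell-like cells. By level, however, B cell-like cells (802, 181 and 527 CPM) and near-empty droplets were above both classes in the combination library, and near-empty droplets in the IL-10/2-Trikine library too. Near-empty droplets of the combination library (881 CPM) were also above NK-like cells without Cd3. Foxp3+ T cells held 306, 532 and 802 CPM, below the near-empty droplets in every library, and plasmacytoid DC-like cells 1888, 1911 and 1144 CPM.

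Ccl5, which encodes RANTES, a ligand of Ccr1 and Ccr3, followed the cytotoxic lymphocytes. NK-like cells without Cd3 held 12707, 10200 and 15451 CPM, CD8+ T cells 10331, 7149 and 13372 CPM, and NK-like cells with Cd3 7073, 3924 and 7976 CPM, and this order was the same in all 3 libraries with no overlap of counting intervals between them. A Ccl5 UMI was found in 81.8, 82.4 and 92.1% of thinned CD8+ T cells and in 92.1, 88.0 and 92.4% of thinned NK-like cells without Cd3. T cells with Trdc but no Cd4, Cd8a, Cd8b1 or Foxp3, a small gamma-delta gate of 39, 102 and 45 cells named after its values were seen, were at 8624, 15571 and 14923 CPM. This gate covers the T cell clusters only, and Trdc was also a leading gene of an NK-like cluster described below. The helper and regulatory gates were lower, with 6551, 1716 and 2319 CPM in CD4+ Foxp3- T cells and 1116, 793 and 1018 CPM in Foxp3+ T cells. The Foxp3+ levels were below the near-empty droplets in every library. In macrophage-like cells Ccl5 was at 318, 423 and 466 CPM, and 11.7, 12.3 and 17.6% of thinned cells held a UMI (22.3% at most in monocyte-like cells). The macrophage-like shares were below the 21.0, 18.4 and 24.7% of B cell-like cells (22.3 to 27.2% of them scored as doublets). The KP1 tumor cell-like cells had 14.6, 9.83 and 28.1%. In the IL-10/2-Trikine library macrophage-like cells were thus above KP1 tumor cell-like cells, by level too (423 against 219 CPM). Macrophage-like levels were below those of B cell-like cells (1329.5, 775 and 1359 CPM) in every library, so they were not told apart from that class. They were also below the near-empty droplets. Median depths were 6725.5, 5234 and 5381.5 UMIs in macrophage-like cells, 11534, 14682 and 11173 in KP1 tumor cell-like cells and 4554.5, 4751.5 and 5435 in B cell-like cells.

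Xcl1, which encodes lymphotactin, the ligand of Xcr1, was spread over cluster 5 and the NK-like cells. Cluster 5 held 1213, 310 and 1066 CPM, NK-like cells with Cd3 866, 358 and 571 CPM, and NK-like cells without Cd3 755, 538 and 454 CPM. Cluster 5 was the highest class in the mono-IL-10 and combination libraries, and NK-like cells without Cd3 were the highest in the IL-10/2-Trikine library. CD8+ T cells were at 268, 122 and 102 CPM, with a UMI in only 3.55, 2.40 and 2.80% of thinned cells, against 1.43, 0.68 and 3.80% of KP1 tumor cell-like cells and 2.43, 2.87 and 1.08% of B cell-like cells. The CD8+ share was below that of B cell-like cells in the IL-10/2-Trikine library and below that of KP1 tumor cell-like cells in the combination library. By share, CD8+ T cells therefore did not stand above both background classes in these libraries. By level they did in the combination library, where KP1 tumor cell-like cells held 37.0 CPM and B cell-like cells 29.9 CPM. In the IL-10/2-Trikine library the values of these classes were 17.1 and 161 CPM, so B cell-like cells were above CD8+ T cells. A small number of cells carried the CD8+ signal, since the top 1% of CD8+ T cells held 72.9, 80.0 and 70.9% of its Xcl1 UMIs, compared with 4.33, 4.40 and 3.55% of its Ccl5 UMIs. Foxp3+ T cells went from 15 UMIs in the mono-IL-10 library to 168 and 710 UMIs, or 9.71, 37.1 and 121 CPM. Macrophage-like cells held 6.39, 10.7 and 9.13 CPM and a UMI in 0.54, 0.66 and 0.75% of thinned cells, which is background.

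Ccl1, which encodes the Ccr8 ligand TCA-3 of activated T cells, had its highest levels in cluster 5 and the helper gate. Cluster 5 held 213, 184 and 295 CPM and CD4+ Foxp3- T cells 108, 131 and 145 CPM, and these were the first and the next highest classes in every library without overlap. A Ccl1 UMI was present in 4.36, 7.91 and 9.28% of thinned cluster 5 cells and in 2.71, 4.90 and 5.41% of CD4+ Foxp3- T cells. Unthinned, the shares were 10.0, 23.5 and 22.1% in cluster 5, 5.10, 12.9 and 14.0% in CD4+ Foxp3- T cells and 0.53, 1.68 and 2.90% in KP1 tumor cell-like cells. None of the thinned KP1 tumor cell-like cells held one, which at 1000 UMIs per cell allows upper limits of 1.05, 0.62 and 0.70%. Foxp3+ T cells were at 18.8, 40.7 and 47.0 CPM. CD8+ T cells were at 11.6, 5.86 and 8.22 CPM and macrophage-like cells at 3.11, 3.97 and 1.83 CPM. Single barcodes weighed heavily in the NK-like cells, where 1 barcode held 56.4, 14.6 and 35.5% of the Ccl1 UMIs of cells with Cd3 and 65.2% of the 112 UMIs of cells without Cd3 in the IL-10/2-Trikine library.

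The first comparison set the IL-10/2-Trikine library against mono-IL-10 and so asked what the added IL-2 receptor β recruitment went with. The next set the combination against IL-10/2-Trikine and asked the same of anti-PD-1. The 2 comparisons share the IL-10/2-Trikine library and are not independent. A gene was called higher or lower when its CPM ratio was over 2 or under 0.5 with at least 20 UMIs in the pair, and the share of all measured genes past the same limit in the same class is given as the background. In all, 27 of 80 member ratios passed, against 6.32% of the ratios of all genes over the same classes and comparisons. In the first comparison the median of all genes lay at -0.15 (log2) in CD8+ T cells, -0.12 in CD4+ Foxp3- T cells, -0.13 in NK-like cells with Cd3 and -0.18 in cluster 5, and member ratios there are to be read relative to it. The classes read as background moved as well. In the first comparison B cell-like cells were at -2.60 for Ccl3, -2.15 for Ccl4, -0.78 for Ccl5 and 0.32 for Xcl1, and KP1 tumor cell-like cells at -0.63, -1.31, -0.82 and -1.45. In the combination against IL-10/2-Trikine B cell-like cells were at 2.55, 1.54, 0.81 and -2.43 for the same 4 genes, and KP1 tumor cell-like cells at 0.88, 0.88, 1.75 and 1.11. Several called ratios were thus matched or exceeded in at least 1 of these classes. Those of Ccl3 and Ccl4 in CD8+ T cells and in NK-like cells without Cd3 in the first comparison were exceeded in B cell-like cells only. Of the B cell-like cells 27.2, 25.9 and 22.3% were scored as doublets, and the falls in KP1 tumor cell-like cells were smaller. The part of free RNA in these ratios was not tested.

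In CD8+ T cells Ccl3, Ccl4 and Xcl1 were lower under IL-10/2-Trikine than under mono-IL-10, 3 of 5 members against 10.0% of 13415 genes. The log2 ratios were -1.25 (95% interval -1.31 to -1.19) for Ccl3, -1.63 (-1.67 to -1.60) for Ccl4 and -1.14 (-1.20 to -1.08) for Xcl1. Ccl3 and Ccl4 fell further in B cell-like cells (-2.60 and -2.15) but less in KP1 tumor cell-like cells (-0.63 and -1.31). Xcl1 fell further in KP1 tumor cell-like cells (-1.45) but was higher in B cell-like cells (0.32). The CD8+ levels of these genes under IL-10/2-Trikine (111, 382 and 122 CPM) were below the near-empty droplets (184, 581 and 136 CPM). Ccl5 was at -0.53 (0.27 in non-cycling cells) and Ccl1 at -0.98, neither past the limit, and the median of the 5 was -1.14. The Xcl1 call ended relative to all genes (-0.99) and with TMM factors, resolution 2, sub-clusters, all genes for clustering or marker gates (-0.98 to -0.21). In the combination against IL-10/2-Trikine 0 of 5 members passed (5.83% of 13090 genes), and the nearest to the limit was Ccl5, at 0.90 (0.90 to 0.91). Summed dissociation and stress transcripts (12 genes such as Fos, Jun and Hspa1a) were also highest in the mono-IL-10 library, at 3068, 2476 and 2802 CPM. NK markers (12 genes) summed to 4497, 12046 and 10068 CPM, of which Gzma alone made up 4278, 11742 and 9777.5 CPM, and Ncr1 was at 0.98, 1.14 and 1.72 CPM. Macrophage markers (11 genes) summed to 78.3, 20.4 and 70.5 CPM, with Trem2 at 0 in the IL-10/2-Trikine library, against 12064 to 13850 CPM in macrophage-like cells. The part of these lists in the ratios was not tested.

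NK-like cells with Cd3 had the most members past the limit. Under IL-10/2-Trikine 4 of 5 were lower than under mono-IL-10 (12.9% of 12715 genes), Ccl3 at -2.84 (-2.95 to -2.73), Ccl4 at -2.10 (-2.14 to -2.05), Xcl1 at -1.27 (-1.33 to -1.22) and Ccl1 at -2.40 (-2.75 to -2.04). Ccl1 was at -1.43 without the highest barcode of each library, and at 27.3, 5.18 and 22.8 CPM it was near the near-empty droplets under mono-IL-10 and below them in the other libraries. Ccl5 was at -0.85 (-0.87 to -0.83). The median of the members was -2.10. The Ccl4 and Xcl1 ratios were no larger in size than those of B cell-like and KP1 tumor cell-like cells, respectively, and Ccl3 under IL-10/2-Trikine (42.9 CPM) was below the near-empty droplets. In the combination Ccl5 rose by 1.02 (1.01 to 1.03) and Ccl1 by 2.14 (1.87 to 2.41) over IL-10/2-Trikine, 2 of 5 members against 5.31% of 13186 genes, while Ccl5 in near-empty droplets went from 2332 to 6585 CPM, with Xcl1 at 0.67, Ccl3 at 0.48 and Ccl4 at 0.41. The Ccl5 call lay just past the limit and was lost with median-of-ratios or TMM scaling (0.97 and 0.94), at resolution 2 and with marker gates (0.89), and in non-cycling cells both calls were (0.39 for Ccl5 and 0.37 for Ccl1). The Ccl1 call was also lost with all genes used for clustering (0.46), and the Xcl1 call of the first comparison with marker gates (-0.30). The stress transcripts of this class summed to 4830, 2663 and 3444 CPM, and NK markers to 10428, 16466 and 13917 CPM. Gzma, which is among the NK markers, made up most of that sum in the mono-IL-10 and IL-10/2-Trikine libraries, while Ncr1 was at 240, 111 and 175 CPM. The part of these lists in the ratios was not tested.

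Among NK-like cells without Cd3, Ccl3 fell by 2.36 on the log2 scale (ratio -2.36, -2.50 to -2.23) and Ccl4 was at -1.53 (-1.58 to -1.48) under IL-10/2-Trikine against mono-IL-10. Ccl1 was higher, at 3.07 (1.98 to 4.42), from 7 and 112 UMIs, of which a single barcode held most. Ccl1 levels (2.59, 21.8 and 2.87 CPM) were below the near-empty droplets in every library. Those of Ccl3 were below them under IL-10/2-Trikine and the combination. So 3 of 5 members passed, against 7.41% of 10295 genes, while Ccl5 was at -0.32 and Xcl1 at -0.49. In the combination against IL-10/2-Trikine 1 of 5 passed (4.18% of 10831 genes), which was Ccl1 at -2.93 (17 UMIs in the combination). The Ccl1 direction turned within cluster 9 in both comparisons (-0.39 and 1.06), and in non-cycling cells in the second (0.31). In the whole class Ccl5 was at 0.60 (0.58 to 0.61) with anti-PD-1 added. Stress transcripts were 6605, 3786 and 4364 CPM here.

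In CD4+ Foxp3- T cells the member past the limit under IL-10/2-Trikine was Ccl5. It was at -1.93 (-1.96 to -1.90) against mono-IL-10, 1 of 5 members beside 11.0% of 11153 genes, while Ccl3 was at -0.29, Ccl4 at -0.83, Xcl1 at -0.50 and Ccl1 at 0.28. In the combination Xcl1 was at 1.57 (1.39 to 1.76) over IL-10/2-Trikine, again 1 of 5 (3.37% of 11850 genes), with Ccl3 at 0.86 (0.81 to 0.90) and Ccl4 at 0.91 (0.87 to 0.95). The Xcl1 call was lost with sub-clusters (0.66) or with all genes used for clustering (0.61). Its levels (60.2, 42.6 and 127 CPM) were below those of near-empty droplets in every library, and those droplets too held more Xcl1 in the combination. The Ccl5 levels under IL-10/2-Trikine and the combination (1716.5 and 2319 CPM) were likewise below the near-empty droplets of those libraries. NK markers in this gate, a list that includes Gzma, summed to 2464.5, 7779 and 6922 CPM, with Ncr1 at 1.18, 4.48 and 4.88 CPM, and their part was not tested. The make-up of this gate differed between libraries. Cluster 3 (Foxp3, Cd4, Csf1) was its largest part in each and held 35.4, 68.7 and 79.0% of it. Cluster 13 (Dapl1, Igfbp4) held 26.9, 8.65 and 4.76%, cluster 0 (Cd8b1, Ly6c2) 20.1, 9.80 and 6.42% and cluster 7 (Cd8a, Lag3) 14.3, 2.54 and 4.63%. Within cluster 3 alone Ccl3 was 1778, 1010 and 1668.5 CPM, Ccl4 2987, 1315 and 2194 CPM, Ccl5 6547, 1849 and 2296 CPM and Xcl1 98.2, 45.5 and 139 CPM. There Ccl4, Ccl5 and Xcl1, 3 members rather than 1, were past the limit under IL-10/2-Trikine against mono-IL-10, and Ccl3 was not. Resolution 2 clusters and per-cell marker gates gave 3 members for each comparison.

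In Foxp3+ T cells 3 of 5 members were higher under IL-10/2-Trikine than under mono-IL-10 (5.08% of 9943 genes), Ccl3 at 1.52 (1.28 to 1.77), Xcl1 at 1.93 (1.17 to 2.80) and Ccl1 at 1.11 (0.54 to 1.73). These rested on 191 cells in the mono-IL-10 library, and none of the 3 calls held with T sub-clusters. There Ccl3 was at -0.43, Ccl1 at -0.06 and Xcl1 at 0.26, and Ccl3 was at -0.90 with chemokine genes allowed among the clustering genes. The Ccl1 and Xcl1 levels (Xcl1 9.71, 37.1 and 121 CPM) were not above those of the near-empty droplets in any library. In the combination against IL-10/2-Trikine Xcl1 was at 1.71 (1.46 to 1.96), 1 of 5 members beside 2.20% of 10684 genes, while the near-empty droplets also held more Xcl1 in the combination, and at 0.40 to 0.52 in non-cycling cells, sub-clusters or marker gates. NK markers in this gate, a list that includes Gzma, summed to 352, 3293 and 2367 CPM, with Ncr1 at 3.24, 14.1 and 7.52 CPM, and their part was not tested.

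Cluster 5 had Ccl5 at -1.14 (-1.18 to -1.09) and Xcl1 at -1.97 (-2.01 to -1.92) under IL-10/2-Trikine against mono-IL-10, 2 of 5 members beside 13% of 12758 genes. The Ccl5 call ended relative to all genes (-0.95), with TMM factors (-0.86) and in non-cycling cells (-0.99). NK markers in this cluster, a list that includes Gzma, summed to 711, 3251 and 2126 CPM, with Ncr1 at 1.49, 3.02 and 2.59 CPM, and their part was not tested. In the combination Ccl3 was at 1.92 (1.86 to 1.98), Ccl4 at 1.53 (1.48 to 1.58) and Xcl1 at 1.78 (1.75 to 1.82) over IL-10/2-Trikine, 3 of 5 members beside 3.86% of 13234 genes. B cell-like cells were higher by as much or more for Ccl3 and Ccl4, but lower for Xcl1. In cluster 5 Ccl5 (1075, 489 and 744 CPM) and Ccl4 (212, 167 and 485 CPM) were below the near-empty droplets in every library, and Ccl3 in the first 2 but not in the combination. Ccl1 was at -0.21 and 0.68 in these comparisons. A cycling transcript (Mki67 or Top2a) was present in 49.7, 65.9 and 55.7% of these cells, unthinned, at median depths of 4219.5, 8178.5 and 5331 UMIs.

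Macrophage-like cells had 0 of 5 members past the limit in the first comparison (5.50% of 13283 genes), with Ccl3 at 0.47 (0.42 to 0.51) and Ccl4 at 0.41 (0.39 to 0.43). In the combination 1 of 5 passed (3.83% of 13029 genes), Ccl1 at -1.12 (-1.79 to -0.45) from 38 and 41 UMIs, and with the highest barcode of each library left out none did. Monocyte-like cells had 2 of 5 past the limit in the first comparison (3.78% of 12190 genes), Xcl1 at -1.04 and Ccl1 at 1.07, both from levels of background, and 0 of 5 in the next (3.05% of 11983 genes). Their Ccl3 was at -0.67 and -0.71 and their Ccl4 at -0.73 and -0.30.

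**Figure D2:**
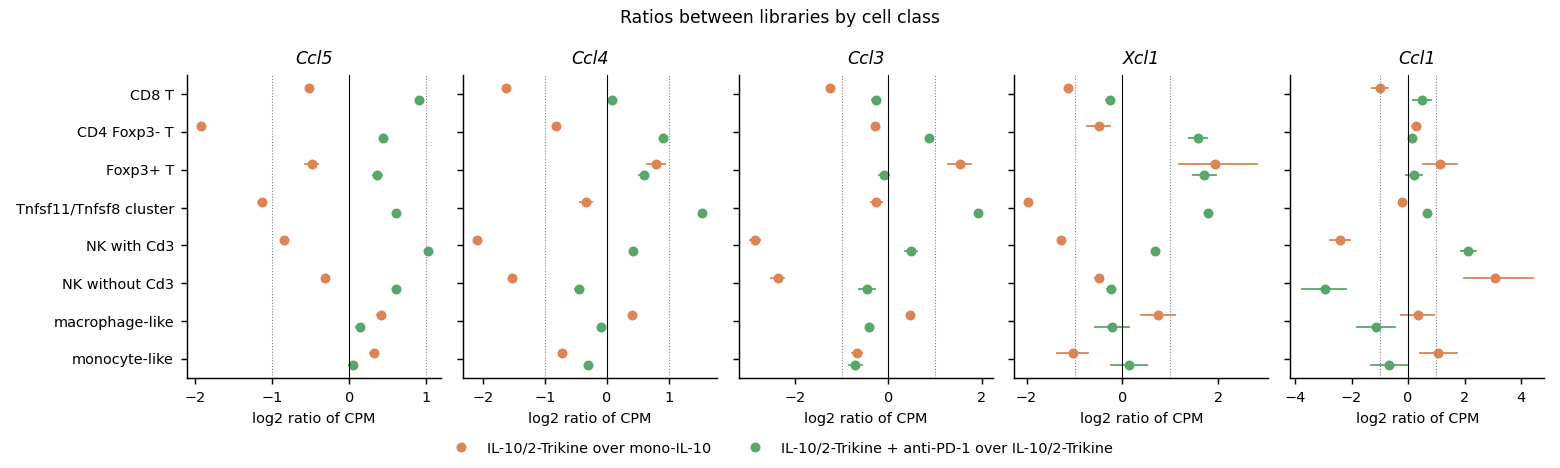
Log2 ratios of CPM of the 5 genes in 8 cell classes, for IL-10/2-Trikine over mono-IL-10 and for the combination over IL-10/2-Trikine, with exact 95% counting intervals and dotted lines at the 2-fold limit. Ccl3 and Ccl4 lay below the lower line in CD8+ T cells and both NK-like classes in the first comparison, and inside the lines in macrophage-like cells in both.

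The clusters within the CD8+ gate differed in which chemokines they carried. Cluster 0 (Cd8b1, Ly6c2, S1pr1), which held 52.1, 57.7 and 59.1% of CD8+ T cells, had 18166, 15964 and 20443 CPM of Ccl5, but 94.9, 54.8 and 39.7 CPM of Ccl3. Cluster 7 (Cd8a, Lag3), with 20.4, 7.77 and 23.6% of the gate, had 11888, 10902 and 17277 CPM of Ccl5 and 2165, 1036 and 740 CPM of Ccl4, the highest Ccl4 of the 3 large CD8+ clusters. Cluster 6, led by cell cycle genes and holding 11.3, 31.5 and 12.7%, was lower in Ccl5 (2438, 2048 and 2679 CPM) and the highest in Xcl1 (753, 192 and 201 CPM, against 18.9, 11.8 and 20.6 CPM in cluster 0). Within clusters 6 and 7 all 3 CD8+ calls for Ccl3, Ccl4 and Xcl1 in the first comparison held, and within cluster 0 only Ccl4 did (891 to 233 CPM). Cluster 13, with 15.2% of the gate in the mono-IL-10 library and 1.42 and 1.49% in the others, had a Ccl5 UMI in 28.4% of its thinned CD8+ cells in the mono-IL-10 library and did not show these calls, at 0.67 for Ccl3, 0.04 for Ccl4 and 0.12 for Xcl1.

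Cells with a cycling transcript held less Ccl5 in every lymphocyte class examined. In CD8+ T cells cycling cells were at 6948, 3511 and 6987 CPM and the others at 14400, 17412 and 21270 CPM. In NK-like cells with Cd3 the values were 4931, 2401 and 4315 CPM against 9302, 10055 and 13160 CPM. The IL-10/2-Trikine library had the most cycling cells, 48.7% of CD8+ T cells against 37.2 and 33.9%, and 57.4% of NK-like cells with Cd3 against 34.4 and 34.7%. These shares were not thinned, and that library was also the deepest in both classes. Median UMIs were 4263, 4489 and 3485.5 in CD8+ T cells and 4673, 6890 and 4203 in NK-like cells with Cd3. Among non-cycling cells, Ccl5 was thus higher under IL-10/2-Trikine than under mono-IL-10 in both classes, the opposite direction to that of all cells, whereas Ccl3 in non-cycling CD8+ T cells was still 200 CPM under mono-IL-10 and 90.7 CPM under IL-10/2-Trikine. Xcl1 went the other way in CD8+ T cells, with 338, 140 and 135 CPM in cycling cells and 184, 71.3 and 60.9 CPM in the rest.

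NK-like cells lay in cluster 2 (Klra6, Klra5, Trdc), with a Cd3e UMI in 63.9% of cells, and cluster 9 (Klra8, Klra4), with one in 8.08%. Cluster 2 held 74.5, 93.5 and 80.5% of the gate with Cd3, and cluster 9 held 73.1, 52.4 and 53.4% of the gate without it. Among cells without Cd3, Ccl5 in cluster 9 was 14769, 15443 and 20652 CPM and in cluster 2 7533, 5139 and 9263 CPM, while Xcl1 was 424, 259 and 259 CPM in cluster 9 and 1586, 807 and 685 CPM in cluster 2. So the 2 NK-like clusters ranked in opposite order for Ccl5 and Xcl1 in every library. Ccl3 and Ccl4 were highest in the mono-IL-10 library in both, at 629, 181 and 114 CPM and 2936, 1464 and 946 CPM in cluster 9, and at 599, 62.3 and 55.8 CPM and 3609, 713 and 605 CPM in cluster 2.

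**Figure D3:**
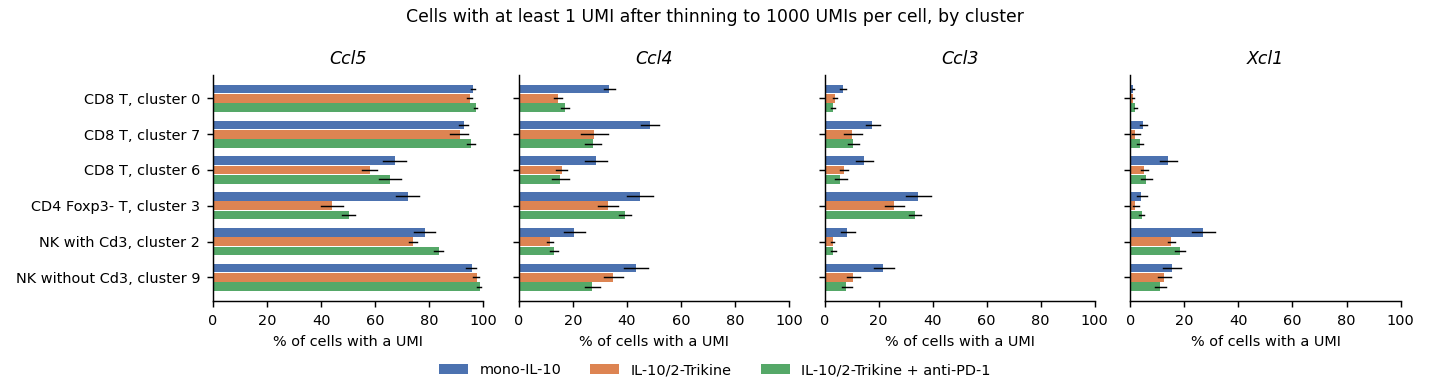
Percent of cells with at least 1 UMI of Ccl5, Ccl4, Ccl3 or Xcl1 after thinning to 1000 UMIs, in single clusters of CD8+ T cells, CD4+ Foxp3- T cells and NK-like cells, with 1 bar per library and exact 95% binomial intervals as lines. Of the 3 CD8+ clusters plotted, cluster 6 had the highest share of Xcl1+ cells (13.7% in the mono-IL-10 library) and the lowest share of Ccl5+ cells.

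The share of each chemokine's transcripts held by a class differed between the libraries. Ccl3 UMIs totaled 48979, 38829 and 65760, of which macrophage-like cells held 22.6, 12.9 and 13.4%, CD4+ Foxp3- T cells 11.5, 12.6 and 34.8%, CD8+ T cells 13.3, 8.08 and 2.87% and neutrophil-like cells 6.36, 10.6 and 0.940%. Thus CD4+ Foxp3- T cells were the largest of these sources in the combination library and macrophage-like cells in the mono-IL-10 library. The CD4+ Foxp3- T cells held 5909008, 6245253 and 16200389 UMIs of all genes, so their share of Ccl3 also moved with their amount. Ccl4 (221497, 136237 and 190175 UMIs) had its largest named share in macrophage-like cells, with 36.0, 25.3 and 40.0%. Of the Ccl5 UMIs (529678, 526888 and 696720), CD8+ T cells held 47.9, 38.2 and 39.0% and NK-like cells, with and without Cd3 together, 11.9, 34.5 and 29.9%. NK-like cells also held 4.53, 19.8 and 12.5% of all UMIs of the libraries, so their share of Ccl5 moved with their own amount. For Xcl1 (33826, 40119 and 47362 UMIs) cluster 5 held 19.2, 22.8 and 41.8%, NK-like cells 16.3, 36.3 and 23.4% and CD8+ T cells 19.5, 8.56 and 4.36%. For Ccl1 (4688, 11096 and 11563 UMIs) cluster 5 held 24.3, 48.9 and 47.4%, CD4+ Foxp3- T cells 13.6, 7.35 and 20.3% and cDC2-like cells 5.44, 19.1 and 4.24%. Cluster 5 itself held 5363372, 29475035 and 18565951 UMIs of all genes, so its Ccl1 share moved along with its amount. Of the cDC2-like barcodes 56.6% held a Cd3e UMI, and 35.5, 45.7 and 46.1% were scored as doublets. The part of T cells in the Ccl1 of cDC2-like cells was not tested. The macrophage-and-T barcodes held 30.8, 11.7 and 5.19% of the Ccl1 UMIs and 26.5, 11.2 and 6.12% of those of Xcl1, and these could not be given to a cell type.

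**Figure D4:**
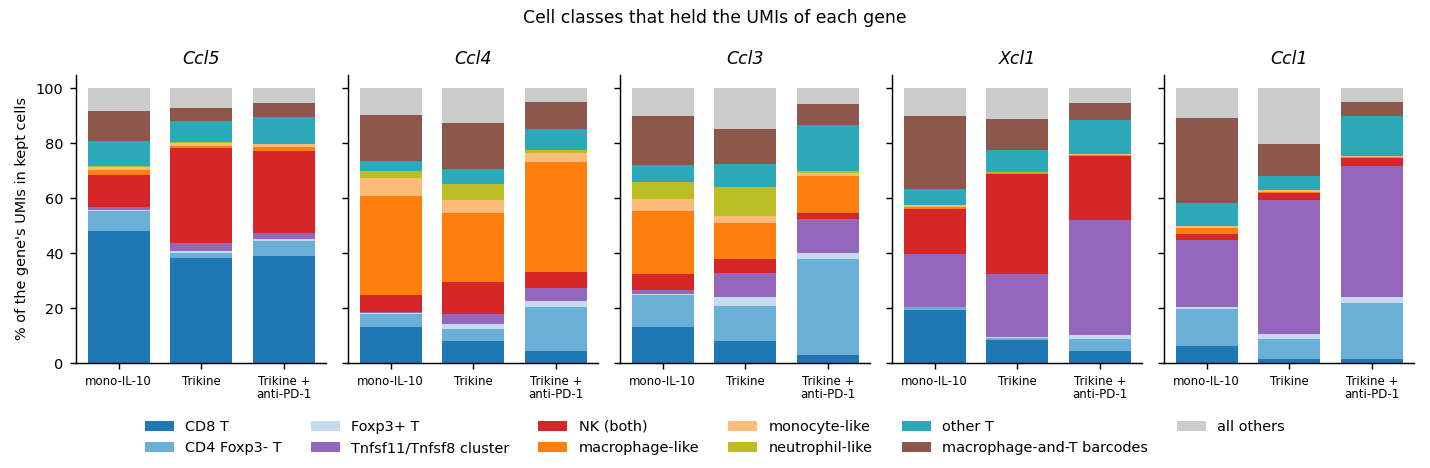
Percent of each chemokine's UMIs held by each cell class, stacked to the whole of a library, for the 3 libraries and 5 genes, where the Tnfsf11/Tnfsf8 cluster is cluster 5. CD8+ T and NK-like cells made up most of Ccl5, macrophage-like cells held the largest named share of Ccl4, and cluster 5 held from 24.3 to 48.9% of Ccl1.

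Within single cells, Ccl3 was more often found where Ccl4 was also found. Among thinned CD4+ Foxp3- T cells with a Ccl4 UMI, 46.6, 45.9 and 57.0% also held Ccl3, against 6.10, 10.8 and 13.8% of those without Ccl4. In NK-like cells without Cd3 the shares were 40.3, 19.2 and 15.0% against 7.28, 3.49 and 3.32%, and in CD8+ T cells 19.9, 17.0 and 13.9% against 4.38, 3.33 and 3.69%. Ifng, the gene of the macrophage-activating cytokine interferon-γ, was found in 49.0, 38.2 and 40.1% of CD4+ Foxp3- T cells with Ccl3 and in 16.0, 17.0 and 15.3% of those without. In cluster 5, Ccl1 was found in 16.5, 13.7 and 27.1% of cells with Xcl1 and in 2.22, 7.36 and 6.41% of those without. Xcl1 and Ccl5 showed the opposite in CD8+ T cells, where 67.8, 44.4 and 73.2% of Xcl1+ cells held Ccl5, below the 82.3, 83.4 and 92.6% of Xcl1- cells. All these shares come from cells of 1 library each and carry no replicate error.

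The receptors of these chemokines were found partly on other cells. Ccr1 was at 608, 689 and 556 CPM in neutrophil-like cells and 322, 336 and 392 CPM in monocyte-like cells, and near 0 in CD8+ T cells. Ccrl2, an atypical receptor that presents chemerin rather than signaling, was at 1839, 1829 and 1730 CPM in neutrophil-like cells and 202, 244 and 258 CPM in macrophage-like cells. Xcr1 was low, at 53.5, 34.7 and 27.5 CPM in cDC2-like cells and 44.9, 37.3 and 37.5 CPM in macrophage-like cells, and no cDC1-like cluster was found. Ccr8 was at 20.7, 16.4 and 19.1 CPM in Foxp3+ T cells and 15.7, 8.45 and 11.6 CPM in cluster 5. Ccr3 was at 6.94, 7.64 and 67.5 CPM in the neutrophil-like cluster, which includes the mast or basophil-like cells, and Ackr2, a scavenging receptor, was at 1.39 CPM or less in every class. Of the receptors reported here, those with enough UMIs in the pair are counted. In CD8+ T cells Ccr3 (-1.40) and Ccr8 (-1.78) were lower under IL-10/2-Trikine than under mono-IL-10, 2 of 4, at levels of 2.81 CPM or less, and Ccr8 was at 1.75 in the combination against IL-10/2-Trikine. In NK-like cells with Cd3, with 4 measured, Ccrl2 was lower (-1.17) in the first comparison and Ccr3 higher (1.26) in the next. Ccr1 in macrophage-like cells was at 2.21 and then -1.34, with 4 measured. In cluster 5 (4 measured) Ccr3 was at -1.17 in the next comparison, and in monocyte-like cells (3 measured) Xcr1 at -1.26 in the first. No measured receptor passed in CD4+ Foxp3- T cells (4 measured) or Foxp3+ T cells (3 and 4), and in NK-like cells without Cd3 the 1 measured, Ccrl2, did not.

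Across the 46 sums of at least 50 cells (class by library), the patterns most like each chemokine were ranked by Pearson's r of log2(CPM + 1) among 7139 genes, as a description over sums that share libraries and depth. For Ccl3 they were Ccl4 (0.84), Gcnt1 (0.78), Plk3 (0.78), Gadd45b (0.77) and Nfkbiz (0.77). For Ccl4 they were Osbpl8 (0.86), Ccl3 (0.84), Ptk2b (0.83), Wbp2 (0.83) and Nfkbiz (0.83). Ccl5 was nearest to Ifitm10 (0.92), Gm2682 (0.92), Eomes (0.90), Arsb (0.89) and Dennd4c (0.89), Xcl1 to Crtam (0.84), Cd160 (0.83), Ctla2a (0.78), Atp10a (0.78) and Klrc3 (0.78), and Ccl1 to Tnfsf11 (0.89), Gm49180 (0.86), Epas1 (0.86), Csf2 (0.86) and Lin54 (0.83). Eomes is a transcription factor of cytotoxic lymphocytes, and Tnfsf11 encodes RANKL and Csf2 encodes GM-CSF. Between members, r was 0.57 for Ccl5 and Xcl1, 0.48 for Xcl1 and Ccl1 and -0.12 for Ccl3 and Xcl1.

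The 23 other chemokine genes were mostly at low counts in lymphocytes. In CD8+ T cells 4 of 10 measured were past the limit under IL-10/2-Trikine against mono-IL-10, beside 10.0% of all genes. These were all lower, and the median of the list was -0.67, against -0.15 for all genes. Cxcl13 from 4.60 to 0.640 CPM (-2.85) and Cxcl14 from 1.67 to 0.391 CPM (-2.09) were the lowest, and Ccl9 (0.83) and Ccl8 (0.63) at the top. With anti-PD-1 added, 7 of 11 were higher and 1 lower (median 1.47, against 5.83% of all genes past the limit). In the same comparison macrophage markers went from 20.4 to 70.5 CPM in CD8+ T cells, from 24.5 to 68.5 CPM in NK-like cells with Cd3 and from 34.8 to 97.0 CPM in those without, and their part was not tested. NK-like cells with Cd3 had 1 of 9 higher and 5 lower (12.9% of all genes), then 5 of 10 higher and 1 lower (5.31%). Those without Cd3 had 3 of 5 lower (7.41%), then 5 of 8 higher and 1 lower (4.18%). CD4+ Foxp3- T cells had 2 of 8 lower, then 2 of 9 higher and 1 lower, Foxp3+ T cells 1 of 3 higher, then 1 higher and 1 lower of 6, and cluster 5 5 of 15 in each direction, then 2 higher and 5 lower. In macrophage-like cells 7 of 17 were higher and none lower under IL-10/2-Trikine against mono-IL-10, beside 5.50% of all genes. At the top were Ccl24, an eosinophil-attracting ligand of Ccr3, from 2.25 to 78.4 CPM (5.12) and Ccl8 from 36.3 to 272 CPM (2.91). In the combination these 2 genes were at 9.53 CPM (-3.04) and 80.1 CPM (-1.76), among 5 of 16 lower and none higher (3.83% of all genes). Monocyte-like cells had 1 of 17 higher, close to the 3.78% of all genes past the limit, then 4 lower (3.05%).

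The 16 genes of antigen-receptor activation and co-secretion were lower under IL-10/2-Trikine than under mono-IL-10 in part. In NK-like cells with Cd3 9 of 16 were lower (median -1.03), beside 12.9% of all genes past the limit. The lowest were Ifng, from 146 to 36.1 CPM (-2.01), and Egr2, from 8.93 to 2.76 CPM (-1.69), and the highest Tnfrsf9 (-0.28) and Csf2 (-0.41). The counts were 4 of 15 lower in CD8+ T cells, with Il2 from 1.67 to 0.533 CPM (-1.65) and Tnf from 12.3 to 4.55 CPM (-1.43), 4 of 16 in CD4+ Foxp3- T cells, with Egr2 from 11.3 to 1.12 CPM (-3.34), 5 of 14 in NK-like cells without Cd3, with Ifng at -1.78, and 6 of 16 in cluster 5, with Crtam from 62.6 to 22.0 CPM (-1.51). No gene of the list was higher in these classes. In Foxp3+ T cells 1 of 15 was higher and 1 lower (5.08% of all genes), in macrophage-like cells 4 of 14 were higher (5.50%) and in monocyte-like cells none passed (3.78%). Of the same list, 3 of 16 were higher in NK-like cells with Cd3 in the combination than under IL-10/2-Trikine, beside 5.31% of all genes. Among them were Irf8 from 325 to 749 CPM (1.20) and Nr4a3 from 68.9 to 146 CPM (1.09). In that comparison 1 of 16 was lower in CD4+ Foxp3- T cells (3.37%) and 2 of 14 in macrophage-like cells (3.83%), and none passed in the other 5 classes.

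Of the 6 cytotoxic granule genes, Gzma, a granzyme of NK and CD8+ T cells, rose from 4278 to 11742 CPM in CD8+ T cells (1.46) and from 6882 to 13966 CPM in NK-like cells with Cd3 (1.02) under IL-10/2-Trikine against mono-IL-10. Gzmb was at 0.25 and the perforin gene Prf1 at -0.20 in CD8+ T cells, while Prf1 fell from 874 to 418 CPM (-1.06) in NK-like cells with Cd3. The counts past the limit were 1 of 6 higher in CD8+ T cells, Foxp3+ T cells, NK-like cells without Cd3 (Gzmk, 1.31), cluster 5 (Gzma, 2.53) and monocyte-like cells, 2 in CD4+ Foxp3- T cells (Gzma, 1.76, and Gzmb, 1.35), 5 in macrophage-like cells, and 1 higher and 1 lower in NK-like cells with Cd3. T cell markers in macrophage-like cells summed to 214, 385 and 240 CPM, and their part was not tested. In the combination against IL-10/2-Trikine 1 gene was lower in monocyte-like cells (3.05% of all genes) and no other passed.

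Among 8 transcription factors, Eomes was lower under IL-10/2-Trikine than under mono-IL-10 in CD8+ T cells (91.5 to 41.3 CPM, -1.15), CD4+ Foxp3- T cells (64.0 to 8.49 CPM, -2.91), NK-like cells with Cd3 (153 to 53.3 CPM, -1.52) and cluster 5 (66.9 to 9.02 CPM, -2.89). Bhlhe40 was also lower in NK-like cells with Cd3 (488 to 227 CPM, -1.10), and Prdm1 in NK-like cells without Cd3 (-1.66). Tbx21 (0.16) and Runx3 (0.19) were the highest of the list in CD8+ T cells. One factor each was lower in Foxp3+ T cells and monocyte-like cells and 1 higher in macrophage-like cells. Counts of a single gene in these short lists are close, in several classes, to the shares of all genes given above with the member ratios. None of the 8 passed in any class in the combination against IL-10/2-Trikine. Of the 12 dissociation and stress genes, 8 were lower in NK-like cells with Cd3 (median -1.63), with Hspa1b from 68.7 to 7.52 CPM (-3.19) and Jun from 226 to 29.7 CPM (-2.93), 5 in CD8+ T cells, with Jun from 152 to 27.4 CPM (-2.47), 5 in NK-like cells without Cd3, 6 in cluster 5, 3 each in CD4+ Foxp3- and Foxp3+ T cells, and 1 each in macrophage-like and monocyte-like cells. In the next comparison 2 were higher in NK-like cells without Cd3 (4.18% of all genes) and 2 in macrophage-like cells (3.83%). The part of these genes in the Ccl3 and Ccl4 ratios of CD8+ T cells and both NK-like classes was not tested.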

How the data were processed

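The study made 3 libraries with the 10x Genomics 3' kit from sorted live CD45+ tumor cells, 1 per treatment. The deposited matrices hold raw UMI counts per gene and barcode, with no normalization. The authors' methods name Cell Ranger with a GRCm39 reference, the file headers name Cell Ranger 8.0.0 and the submitters' processing notes name mm10, so no coordinate was joined to the counts and sequences are from RefSeq GRCm38.p6. Libraries totaled 158570946, 197176873 and 175794959 UMIs.

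Kept barcodes had 200 genes or more and mitochondrial UMIs of 20% or less, the study's own filters, which here left more cells than the study states. They were clustered with scanpy 1.11.5 and leidenalg 0.10.2 (2000 variable genes without chemokines or their receptors, 30 components, 20 neighbors, resolution 1, seed 1). A cluster was named from at least 3 fixed markers, and Pf4, a chemokine listed among the macrophage markers, was dropped. Foxp3+ T cells lack Cd8a and Cd8b1, and CD8+ T cells lack Cd4. Doublets (the highest 10% of Scrublet scores per library, because the automatic threshold called none in 2 libraries) were not removed. UMIs were summed per class and scaled to CPM. With 1 library per group no test, p-value or SE was computed. Ratios were called past 2-fold with at least 20 UMIs in the pair, and shares were taken from cells thinned to 1000 UMIs (500 and none as alternatives). The calling step was checked on simulated counts.

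The 5 members, the receptors and the gene lists (other chemokines, activation and co-secretion, cytotoxic granule, transcription factors, dissociation and stress) were chosen with earlier results of these data known. The text names the members in classes of at least 50 cells per library, the receptors except 1 that is not reported here, from the lists the genes with the 2 highest and 2 lowest ratios with at least 20 UMIs in the pair, of which a part is printed and the rest is given as counts, and for likeness the 5 genes with the highest r among those of at least 50 CPM in 1 sum. Other settings were resolution 2, marker gates per cell, 500 genes, 10% mitochondrial UMIs, doublets removed, median-of-ratios and TMM factors, all genes for clustering, non-cycling cells, T sub-clusters, a 1.5-fold limit and no UMI minimum. Single clusters and leaving out the highest barcode were added after seeing the data.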

Additional observations from a re-analysis of the deposited data

Results flagged for a closer look

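Ratios of the same gene in the same comparison lay far apart between some classes. With 1 library per group these differences were not tested. For IL-10/2-Trikine over mono-IL-10, the Ccl3 log2 ratio was 4.36 higher in Foxp3+ T cells than in NK-like cells with Cd3, and the Xcl1 ratio 3.90 higher in Foxp3+ T cells than in cluster 5. The Foxp3+ ratios behind both depended on the processing. With T sub-clusters Ccl3 went from 1.52 to -0.43 and Xcl1 from 1.93 to 0.26, and with all genes used for clustering Ccl3 was at -0.90. The Ccl1 ratio was 5.47 higher in NK-like cells without Cd3 than in those with Cd3. In the combination over IL-10/2-Trikine the Ccl1 ratio was 5.06 higher in the NK-like cells with Cd3. A single barcode held 65.2% of the Ccl1 UMIs of NK-like cells without Cd3 in the IL-10/2-Trikine library, and without the highest barcode of each library the differences were 3.78 and 3.42.

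Levels were also read in smaller groups of cells. At resolution 2 a group of 8, 11 and 12 mast or basophil-like cells, 0.036, 0.048 and 0.044% of all cells, held Ccl3 at 25346, 19781 and 7621 CPM and Ccl4 at 55715, 55403 and 36528 CPM. They held 1.54, 1.24 and 0.426% of the libraries' Ccl3 UMIs. ILC2-like cells (36, 114 and 34), nearly all within cluster 5, held Ccl1 at 121, 254 and 363 CPM, and cluster 5 without them was at 216, 183 and 295 CPM. The ILC2-like values rested on 24, 139 and 71 UMIs, of which a single barcode held 79.2, 18.0 and 74.6%. Plasmacytoid DC-like cells held Ccl4 at 1911 CPM in the IL-10/2-Trikine library.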

How the results depend on the processing

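Of the 27 member ratios past 2-fold, 27 stayed past it with 500 genes or 10% mitochondrial UMIs, 25 with doublets removed, 24 with TMM or median-of-ratios factors, 21 in non-cycling cells and 25 without the highest barcode of each library. Of the 22 ratios whose class could be rebuilt, 18 stayed past it at resolution 2, 16 with marker gates and 16 with all genes used for clustering, and with T sub-clusters 3 of 9 did. No setting tells a treatment from a library, since each group was 1 library, and the causes of the changes below were not tested unless the setting itself removes cells or genes.

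In the following, the first comparison is IL-10/2-Trikine over mono-IL-10 and the next is the combination over IL-10/2-Trikine. With a 1.5-fold limit the number of members past it was 1 in CD8+ T cells in the next comparison, 2 and 3 in CD4+ Foxp3- T cells, 2 in NK-like cells without Cd3 in the next and 1 in macrophage-like cells in the first. In the first comparison that limit was also passed by Ccl1 in CD8+ T cells and Ccl5 in NK-like cells with Cd3. Ccl4 in Foxp3+ T cells and Ccl3 and Ccl4 in monocyte-like cells passed it too. In the next, Xcl1 in NK-like cells with Cd3, Ccl4 in Foxp3+ T cells and Ccl5 and Ccl1 in cluster 5 also passed. So did Ccl3 and Ccl1 in monocyte-like cells. At resolution 2 it was 3 and 3 in CD4+ Foxp3- T cells and 1 in NK-like cells with Cd3 in the next. With marker gates it was 1 in CD8+ T cells in the next, 3 and 3 in CD4+ Foxp3- T cells, 1 in NK-like cells with Cd3 in the next and 2 and 2 in macrophage-like cells. With doublets removed macrophage-like cells had 2 and 0, and without the highest barcode 0 in the next. Median-of-ratios and TMM factors each gave 1 in NK-like cells with Cd3 in the next, and also ended the first-comparison calls of Xcl1 in CD8+ T cells (-0.99 and -0.98) and Ccl5 in cluster 5 (-0.95 and -0.86). With all genes used for clustering it was 1 in CD8+ T cells in the next, 3 in CD4+ Foxp3- T cells in the first, 1 in NK-like cells with Cd3 in the next and 1 and 0 in macrophage-like cells. Within single clusters it was 1 in CD8+ cluster 6 in the next, 1 and 1 in CD8+ cluster 13, 3 in CD4+ Foxp3- cluster 3 in the first, 0 in cluster 9 of NK-like cells without Cd3 in the next, and for those with Cd3 1 in cluster 2 in the next and 2 and 0 in cluster 9.

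Among ratios past 2-fold, the direction turned in the first comparison for Xcl1 in monocyte-like cells (0.89 with marker gates, 0.49 with all genes), Ccl3 in Foxp3+ T cells (-0.90 with all genes, -0.43 with sub-clusters), Ccl1 in Foxp3+ T cells (-0.056 with sub-clusters), CD8+ cluster 13 (Ccl3 0.67, Ccl4 0.039, Xcl1 0.12) and Ccl1 in cluster 9 of NK-like cells without Cd3 (-0.39). In the next it turned for Ccl1 in macrophage-like cells (0.14 with doublets removed, 0.37 in non-cycling cells) and in NK-like cells without Cd3 (0.31 in non-cycling cells, 1.06 in cluster 9). Of the 53 ratios within 2-fold, 30 turned under at least 1 setting, single clusters included. Among them was Ccl5 in the first comparison, which in non-cycling cells was at 0.27 in CD8+ T cells, 0.11 in NK-like cells with Cd3 and 0.086 in those without. No paired analysis was possible because each group was 1 library and the result comes from no test.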
